A study of Mus musculus with 32 samples.

Results

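The genes described here are 10 that serve as markers of hepatic stellate cells, the vitamin A-storing cells formerly called Ito cells, or of their contractile form. They are *Reln*, *Des*, *Hgf*, *Ngfr*, *Gfap* and *Hand2*, grouped as identity genes, and *Acta2*, *Tagln*, *Myh11* and *Cnn1*, grouped as contractile genes. Their probes were found by the gene name in the scanner output, which gave 12 of the 55681 probes on the array. *Gfap* had 3 probes and every other gene had 1, and for *Gfap* the probe that varied most over all samples was taken as its main probe.

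Stellate cells lie between the hepatocytes and the sinusoidal endothelium. In healthy liver they store retinoids, express the intermediate filament protein desmin and supply hepatocyte growth factor to their neighbours. After injury, or near a growing tumor, they can become myofibroblasts, which deposit collagen and contract through a smooth muscle type of actin with its associated proteins. Transcription of that contractile program is known to depend on serum response factor (SRF) with its myocardin family coactivators.

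The mRNA of 3 fractionated liver cell types and of tumor cells was measured on 2-colour Agilent mouse arrays, with 4 samples in each of 8 groups. The hosts were Balb/c males of 6 to 8 weeks. C26 colon carcinoma cells, which are syngeneic with these mice, were injected into the spleen to seed the liver, and control mice received PBS. The methods give 14 days from inoculation to cell isolation, and a legend of the same study gives 15 days.

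The groups were endothelial cells of control mice (EC) and of the tumor microenvironment, TME (ET), Ito cells of control mice (IC) and of the TME (IT), Kupffer cells, the resident macrophages of the liver, of control mice (KC) and of the TME (KT), primary colorectal cancer cells (TP) and cells of the liver metastases (TM). Liver cells were freed by collagenase perfusion. The endothelial and the Ito fractions were both drawn from the non-parenchymal supernatant on Percoll gradients, Kupffer cells were separated from both by adherence, and all were kept in medium with 10% serum for up to 24 h. The study checked the purity of the endothelial, Kupffer and Ito fractions by immunochemistry, with a marker protein for each, and reports high purity for all of them. For the Ito fraction the marker was the protein of *Acta2*, which is therefore not an independent marker of that fraction. Nothing states that the 4 samples of a group were separate animals beyond the label of biological replicates, so p-values measure the spread between these samples.

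Each of the 16 arrays carried 2 samples of the same number. The dye was Cy3 for all control and TM samples and Cy5 for all TME and TP samples, so a change in the TME and a dye effect cannot be told apart. One slide held the arrays of endothelial and Ito cells and the other slide those of Kupffer and tumor cells, so slide and the difference between Ito and Kupffer cells cannot be told apart either. A comparison of Ito with endothelial cells over control and TME samples together is balanced in dye and lies within a slide. The same holds for tumor against Kupffer cells. The share of spots well above background ranged from 38.4 to 57.1% over the samples, no spot was saturated, and the number of arrays limits the precision.

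Among the Ito and the Kupffer arrays, number 4 stood apart from the others. Over 17104 probes, the TME minus control difference of Ito array 4 had a correlation of r = -0.66 with the mean of the other Ito arrays, and Kupffer array 4 one of r = -0.60. The remaining liver cell arrays had r between 0.19 and 0.78 in the same measure. In the TP minus TM difference, tumor arrays 1 and 4 had r = -0.20 and -0.07, and arrays 2 and 3 had 0.64 each. The labels and dyes were kept as given, and results that rest on Ito or Kupffer array 4 are given with and without it. An exchange of control and TME on these arrays, which would turn the sign of every array 4 difference given for Ito and Kupffer cells, was not tested. IT replicate 2 also stood apart in *Acta2*, *Des* and the marker lists described further on.

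The probes are 60 bases long, and their sequences are shown because every value below is a hybridization to these bases only. The first 30 bases of the probes of the 7 genes with a measurable level follow, 5′ to 3′, except for *Des*, whose probe crosses the end of the coding sequence and is given whole with the stop codon in capitals.
Reln: taattttgaatcagcaagagtcactgaagc
Des: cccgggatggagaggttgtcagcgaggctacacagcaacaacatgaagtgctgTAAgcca
Hgf: agtgtgtttgaagcatccatggatacatga
Ngfr: tccagctggcgactatgagatccagacctc
Hand2: gtgcgcttccgtcctctaaaactaagtgga
Acta2: gttttgtggatcagcgcctccagttccttt
Tagln: ctttgaaggagacccagcccagcctctaca

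In mm9, the build of the array files, the *Reln* probe matches chr5:21404915-21404974 on the minus strand. The *Des* probe spans 226 bases, chr1:75363404-75363629 on the plus strand, so its 60 bases are split over more than 1 genomic block. The *Hgf* probe lies at chr5:16124829-16124888 and the *Hand2* probe at chr8:59803220-59803279, both on the plus strand. The *Ngfr* probe lies at chr11:95430211-95430270, the *Acta2* probe at chr19:34316060-34316119 and the *Tagln* probe at chr9:45738097-45738156, all on the minus strand. The chromosomes are those of the same genes in RefSeq (GRCm38.p6). *Des*, *Ngfr* and *Acta2* were each printed as 10 spots, and the median SD between spots of a sample was 0.14 for *Acta2* and 0.16 for *Ngfr* on the log2 scale.

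Levels are given as log2 of the deposited normalized intensity. A level of one gene is not comparable with that of another, since probes differ in brightness. *Gfap*, the glial filament protein used as a marker of quiescent stellate cells in the rat, was barely measured. Of its 3 probes, 2 were not well above background in any of the 24 liver cell samples, and the main probe was so in 7 of 24 and in 0 of 8 tumor samples. *Myh11*, the heavy chain of smooth muscle myosin, was well above background in 0 of 32 samples. *Cnn1*, calponin, which binds actin in smooth muscle, was well above background only in ET replicate 2, at 4.54. The other 7 genes had a probe that was well above background in every sample of some group, as did 29013 of all 55681 probes.

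*Des* encodes desmin, the intermediate filament protein of muscle and stellate cells. The levels in EC were 7.29, 8.32, 8.23 and 7.18, and those in ET were 6.90, 7.41, 6.89 and 7.07. IC had 5.36, 5.57, 5.24 and 6.31, and IT had 5.62, 9.87, 5.71 and 5.54. Control endothelial samples were all above control Ito samples, and IT replicate 2 was above every other sample. KC had 5.55, 5.25, 6.50 and 6.22, KT had 6.03, 5.88, 6.04 and 5.05, and both overlapped the Ito groups. TM replicates 2 and 3 had 5.63 and 5.71, and the other tumor samples were not well above background.

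*Reln* encodes reelin, a secreted ligand of the lipoprotein receptors Vldlr and Lrp8, and serves as a marker of resting and activated stellate cells alike. The levels in EC were 5.68, 6.05, 5.93 and 5.83, and those in ET were 4.74, 4.57, 5.38 and 5.37. IC had 6.0, 5.90, 5.90 and 4.56, and IT had 4.23, 3.61, 4.99 and 6.22, of which the first pair was not well above background. In the Ito groups replicate 4 lay on the opposite side from replicates 1 to 3, low in IC and high in IT. KC had 5.37, 5.57, 3.35 and 4.26 and KT 4.58, 3.18, 4.06 and 4.83, with replicates 3 and 4 of KC and 2 and 3 of KT not well above background. No tumor sample was above it.

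*Hgf* encodes hepatocyte growth factor, the ligand of the receptor Met. EC had 11.38, 11.69, 11.64 and 11.49, ET had 11.25, 10.97, 11.19 and 11.35, IC had 10.24, 10.22, 10.06 and 11.15, and IT had 11.13, 9.82, 11.04 and 10.15. KC had 9.91, 10.01, 9.64 and 9.29, and KT had 9.86, 9.91, 9.95 and 9.64. The order of the group means was EC, ET, IT, IC, KT, KC, and EC lay above ET and IC above KT without overlap. In the tumors TM had 5.52, 2.05, 1.98 and 6.76, the middle pair not well above background, and TP had 6.94, 6.76, 5.65 and 6.10.

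*Ngfr* encodes p75, a low-affinity receptor of the neurotrophins, which stellate cells carry. EC had 8.02, 8.32, 8.41 and 8.11, and ET had 6.65, 6.19, 6.65 and 6.56. IC had 8.14, 7.95, 8.0 and 6.10, and IT had 6.05, 6.31, 5.96 and 8.07. All EC samples were above all ET samples, and replicates 1 to 3 of IC were above those of IT, while Ito replicate 4 had the opposite arrangement, with the IC sample low and the IT sample high. KC had 6.98, 6.55, 6.69 and 6.41 and KT had 6.14, 6.19, 5.76 and 6.79, which overlapped. No tumor sample was well above background.

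*Hand2* encodes a transcription factor of mesenchymal cells that is used as a stellate lineage marker. EC had 6.33, 7.45, 7.29 and 6.27, and ET had 6.41, 6.91, 6.37 and 6.47. IC had 4.08, 4.43, 5.04 and 5.09, and IT had 5.32, 6.64, 4.84 and 4.38, the last not well above background. Every EC sample was above every IC sample, and in the TME only IT replicate 2 reached into the range of ET. KC had 5.41, 5.14, 6.33 and 5.39, KT had 5.61, 5.21, 5.64 and 5.52, and no tumor sample was well above background.

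*Acta2* encodes the smooth muscle actin that marks activated stellate cells. EC had 8.02, 9.30, 9.23 and 7.88, and ET had 7.82, 9.71, 7.88 and 7.72. IC had 5.40, 8.41, 5.22 and 6.76, and IT had 6.46, 12.50, 6.12 and 5.85. IT replicate 2 was the highest of all 32 samples, and without it and IC replicate 2 the Ito samples lay below every endothelial sample. KC had 5.79, 5.82, 6.16 and 7.44, and KT had 7.19, 7.08, 7.21 and 5.94. TM had 6.20, 4.55, 4.96 and 7.83, the middle pair not well above background, and TP had 7.54, 6.34, 6.31 and 6.42.

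*Tagln* encodes transgelin, an actin-binding protein of smooth muscle and of myofibroblasts. EC had 15.41, 16.84, 16.93 and 15.40, and ET had 13.19, 14.68, 13.49 and 13.33. IC had 13.46, 13.78, 13.64 and 10.45, and IT had 10.11, 15.70, 10.23 and 13.36. EC was above all samples of the other groups except IT replicate 2, which was above EC replicates 1 and 4, and in the Ito cells IC replicate 4 was near IT replicates 1 and 3. KC had 13.56, 13.62, 12.38 and 12.53, and KT had 12.19, 12.21, 12.10 and 13.44. TM had 7.87, 7.59, 7.65 and 8.97, TP had 7.98, 7.57, 7.40 and 7.76, and all 8 were above background and below every liver cell sample.

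**Figure D1:**
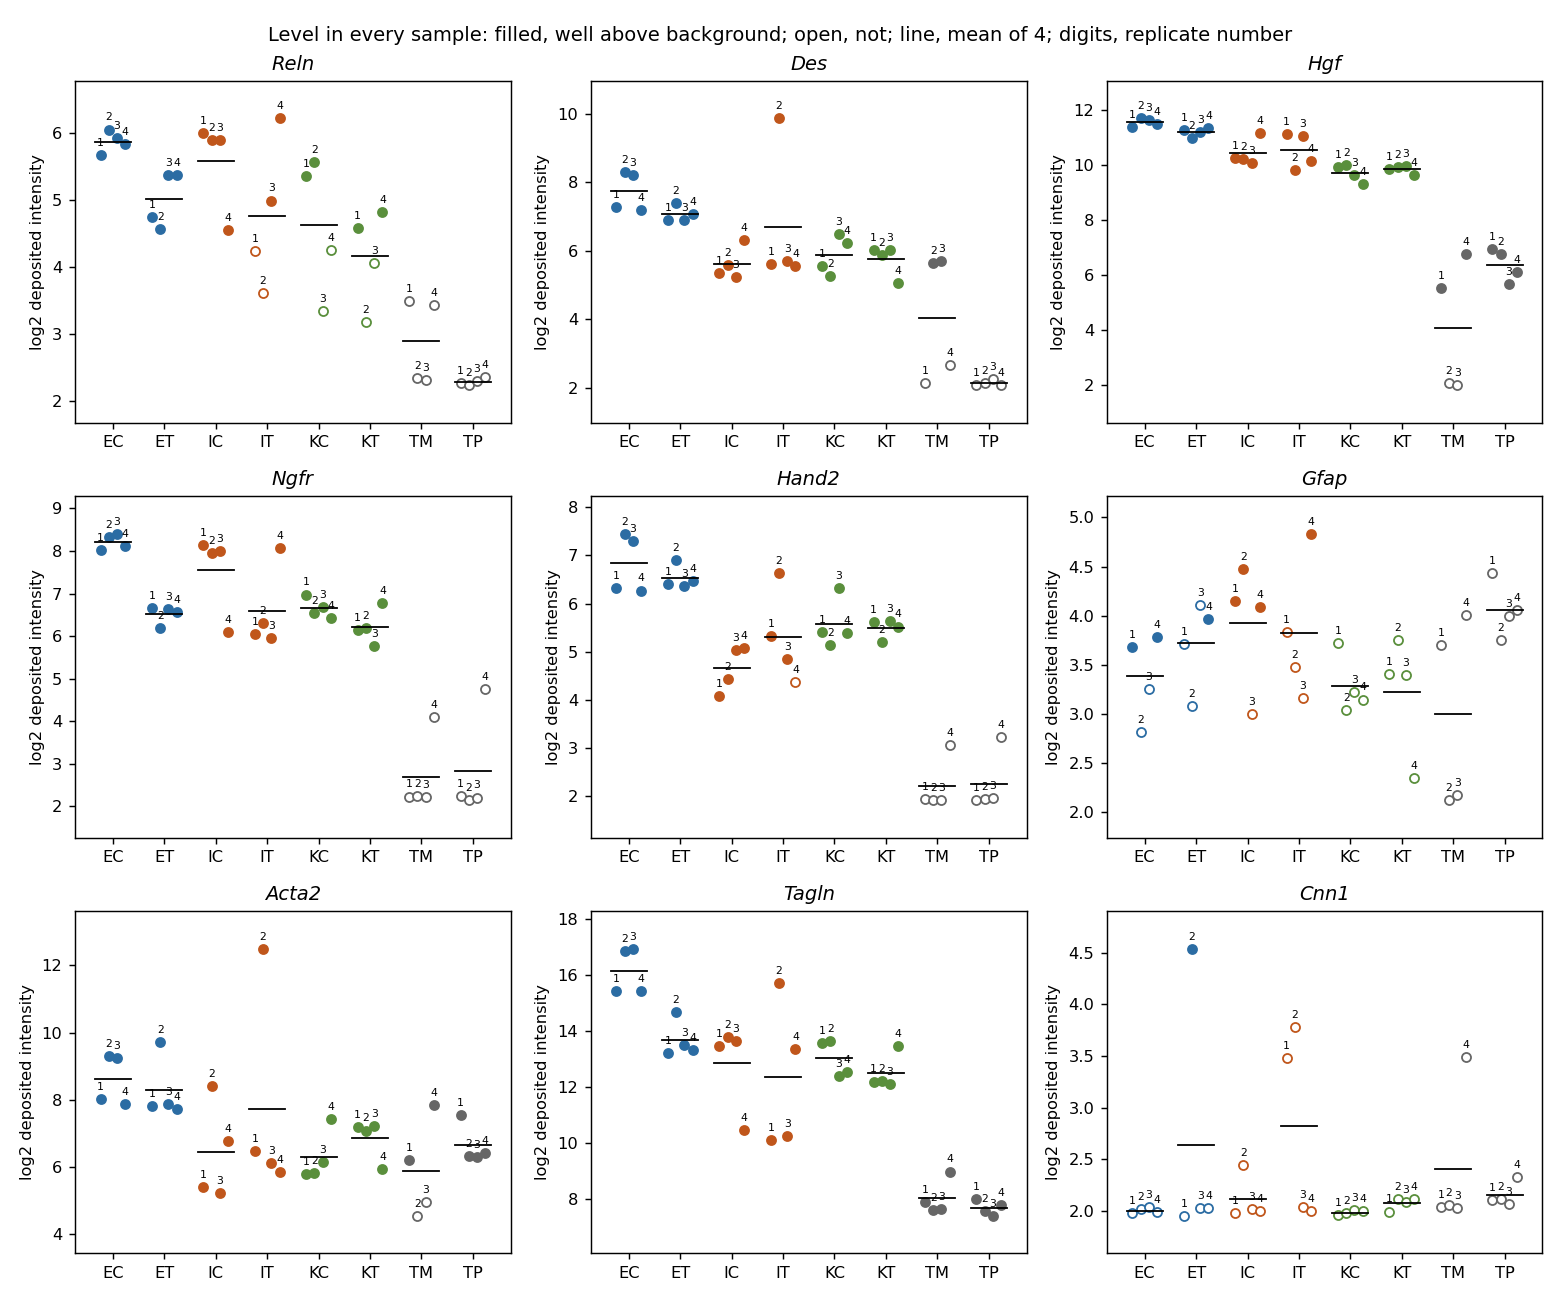
Levels of the 7 measurable genes and of the main probes of *Gfap* and *Cnn1*, 1 panel a gene. The y axis gives log2 deposited intensity, each point is 1 sample with its replicate number (n = 4 a group), horizontal lines are group means, and open points are not well above background. All EC samples sit above all IC samples for *Hand2*, *Tagln* and *Des*, IT replicate 2 is the highest IT sample for *Hand2*, *Tagln*, *Des* and *Acta2*, and all 8 tumor samples sit below the liver cells for *Tagln* and *Hgf*.

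EC had the highest group mean for all 7 genes. Neighbouring groups in the order of means overlapped throughout for *Acta2*, *Des* and *Reln*, and for *Ngfr* from EC down to KT. For *Hand2* the neighbours ET and KC did not overlap, and for *Tagln* EC and ET did not. Group means with SD (n = 4) were 8.61 ± 0.76 in EC, 6.45 ± 1.48 in IC and 7.73 ± 3.19 in IT for *Acta2*, and 16.15 ± 0.85, 12.83 ± 1.60 and 12.35 ± 2.69 for *Tagln*. In a bulk sample fewer cells of a type and less RNA per cell cannot be told apart.

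Whether the stellate genes were higher in the Ito fraction than in the other fractions was asked first, since it checks the label of that fraction. None of the 12 member probes was called higher in Ito than in endothelial cells, and 2 were called lower, at an adjusted p under 0.05 in limma. *Hand2* was lower by 3.27-fold in Ito cells, a log2 difference of -1.71 ± 0.28 (SE; 95% interval -2.29 to -1.13), with an adjusted p of 6.82e-05. *Tagln* was lower by 4.995-fold, a log2 difference of -2.32 ± 0.60 (SE; -3.55 to -1.09), with an adjusted p of 0.00644. Of all probes 18.1% were called in this comparison, and 10.7% were called and lower in Ito cells. For *Des* the difference was -1.26 (-2.33 to -0.18, adjusted p = 0.101), and for *Acta2* it was -1.36 (-2.82 to 0.10, adjusted p = 0.207).

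*Hgf* had a difference of -0.89 (-1.83 to 0.04, adjusted p = 0.195). The receptor gene *Ngfr* had -0.29 (-1.06 to 0.48, adjusted p = 0.69) and *Reln* -0.27 (-0.97 to 0.44, adjusted p = 0.686). These intervals include 0, and they extend to a lower level in Ito cells by up to 1.83 for *Hgf* but to a higher level by no more than 0.48 for any of these 3 genes. The main probe of *Gfap* had 0.33 (adjusted p = 0.514) close to background.

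The call of *Tagln* was not stable. Its adjusted p was 0.0533 with only the 4 endothelial and Ito groups in the fit, 0.0531 without replicate 1 of every group and 0.0889 without replicate 3, while *Hand2* was called in each of these. *Hgf* was called lower in Ito cells in 5 of 18 alternatives, among them the fit with only those groups (adjusted p = 0.00675). Scaling to the 75th percentile moved the median difference of all probes from 0.00 to 0.30 and the share of higher ones among the called from 40.8 to 74.1%, and *Hand2* and *Tagln* were still lower.

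Both calls held without replicate 4 of the Ito and Kupffer groups, where *Hand2* had -1.63 (adjusted p = 0.000449) and *Tagln* -2.09 (adjusted p = 0.0165), and 17.2% of all probes were called. Without IT replicate 2, chosen after seeing the data, 4 members were called, all lower in Ito cells. *Des* then had -1.79 (adjusted p = 0.00154) and *Acta2* -2.15 (adjusted p = 0.00174), while 21.5% of all probes were called. Between control samples alone *Hand2* had -2.18 (adjusted p = 0.000512) and *Tagln* -3.32 (adjusted p = 0.0108) against 9.89% of all probes called. Between TME samples alone no member was called, *Hand2* had -1.24 (adjusted p = 0.053), and 8.26% of all probes were called.

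**Figure D2:**
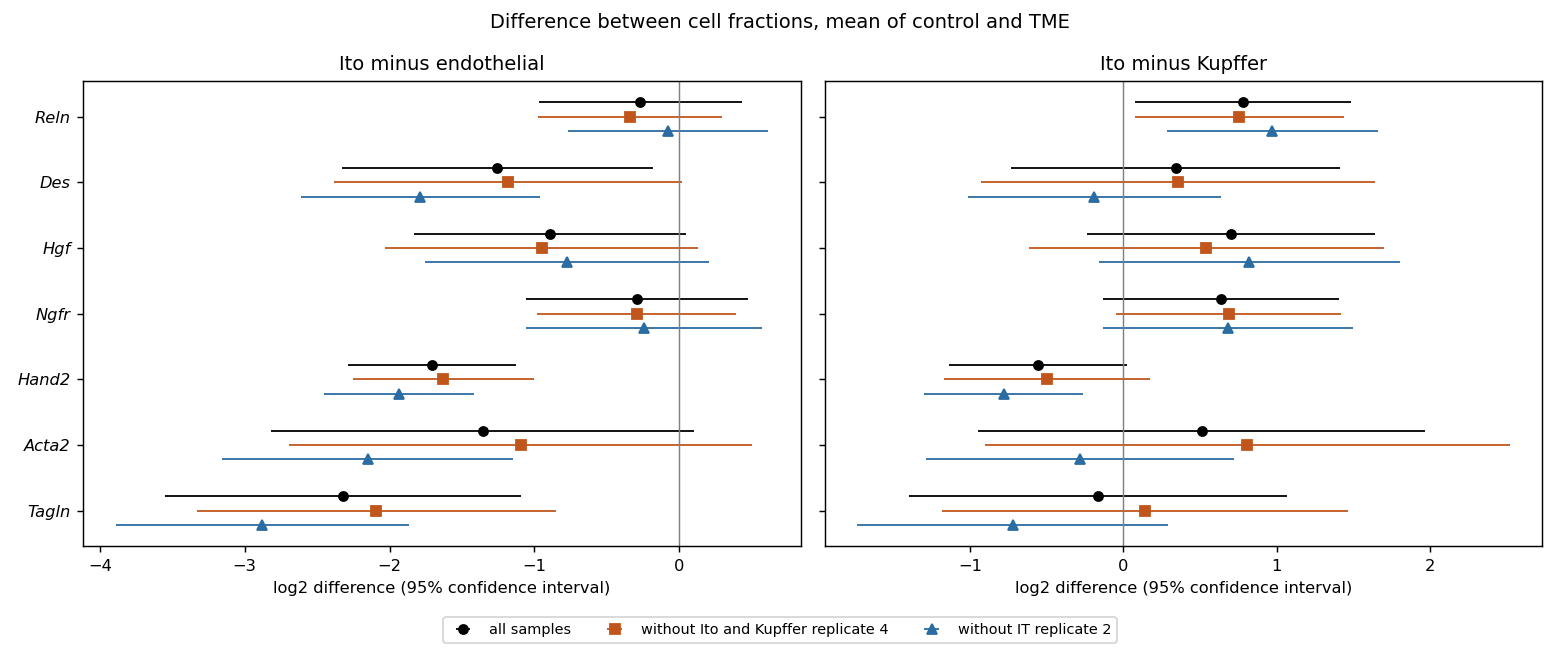
Log2 differences of the 7 measurable genes, Ito minus endothelial on the left and Ito minus Kupffer cells on the right, with 95% intervals from limma for all samples, without replicate 4 of the Ito and Kupffer groups and without IT replicate 2; the vertical line marks 0. The intervals of *Hand2* and *Tagln* lie below 0 against endothelial cells in all 3 sets, and those against Kupffer cells lie closer to 0.

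Of 19 other stellate markers on the array, 9 were called lower, 2 higher and 8 in neither direction in Ito against endothelial cells, with a median difference of -0.79 against 0.00 over all probes. *Tcf21*, a transcription factor of stellate and other mesenchymal cells, had -2.83 (adjusted p = 3.23e-10), the oxygen-binding globin *Cygb* -1.87 (adjusted p = 0.003), the collagen gene *Col3a1* -1.78 (adjusted p = 0.0145) and the growth factor receptor *Pdgfra* -1.71 (adjusted p = 0.00281). The higher ones were *Rgs5*, a regulator of G protein signalling found in pericytes, and *Lrat*, which esterifies retinol for storage. Without IT replicate 2, 12 markers were lower and 2 higher, and without replicate 4 it was 7 and 1. The mean level of the list in a sample was 10.6 to 10.9 in EC and 9.31 to 9.87 in IC, without overlap, and 10.1 to 10.4 in ET and 9.32 to 10.5 in IT, with overlap.

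*Lrat* had a difference of 0.93 (adjusted p = 0.0174) and *Rgs5* one of 1.09 (adjusted p = 0.0298). *Lrat* was well above background in 2 of 4 IC samples, in 1 of 4 EC samples and in 0 of 4 IT samples, so its rise is measured close to background.

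Of 22 other contractile genes 9 were called lower in Ito cells and 0 higher at the same threshold, with a median of -0.39. The calponin relative *Cnn2* had -2.31 (adjusted p = 5.2e-09), the myosin light chain *Myl9* -2.07 (adjusted p = 0.0258), the transgelin relative *Tagln2* -1.71 (adjusted p = 3.71e-05) and the actin crosslinker *Actn1* -0.92 (adjusted p = 0.00134). Without replicate 4, *Myl9* had -1.81 (adjusted p = 0.108) and 7 genes were lower. Of 10 genes in the list of SRF and myocardin regulators, 4 were called lower and 0 higher, with a median of -0.50. *Srf* itself had -1.14 (adjusted p = 4.19e-05) and the transcription factor gene *Mef2c* had -1.34 (adjusted p = 0.00278). The matricellular targets *Ccn2* and *Ccn1*, listed on the array as Ctgf and Cyr61, had -4.63 (adjusted p = 9.55e-05) and -1.99 (adjusted p = 0.00223). *Myocd*, which encodes myocardin, was not well above background in any group.

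Among 15 partners of *Hgf*, *Ngfr* and *Reln*, 3 were higher and 3 lower in Ito cells. Among the higher ones, the protease that activates the growth factor, *Hgfac*, which hepatocytes secrete, was higher by 2.91 (adjusted p = 8.31e-09). The HGF receptor gene *Met* was higher by 0.87 (adjusted p = 0.00518). Among the lower ones, the reelin receptor *Vldlr* had -2.23 (adjusted p = 1.8e-05) and the neurotrophin *Bdnf* -1.48 (adjusted p = 2.41e-05).

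Markers of other cell types differed between the fractions as well, and their part in the members' differences was not tested. All 10 hepatocyte markers were higher in Ito than in endothelial cells, with a median of 2.43, among them *Apob* by 4.88 and *Alb* by 3.34. Their mean level in a sample was 9.16 to 9.38 in EC, 8.07 to 8.40 in ET, 11.2 to 11.8 in IC and 10.6 to 11.7 in IT, and 9 or 10 of the 10 were well above background in every sample of these groups. Of 10 macrophage markers 6 were higher, with a median of 1.57 and mean levels of 9.92 to 10.3 in EC and 11.2 to 12.8 in IC, without overlap, and of 10.2 to 10.7 in ET and 9.60 to 12.7 in IT, with overlap. Of 10 endothelial markers 7 were lower, with a median of -1.25 and mean levels of 12.4 to 12.8 in EC, 11.7 to 12.3 in ET, 10.9 to 11.5 in IC and 9.27 to 11.4 in IT, and all 10 were well above background in every Ito sample.

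Markers of further cells were examined in the same comparison, in which 18.1% of all probes were called. In the list of vascular smooth muscle and pericyte markers 1 of 10 was called, *Mcam*, higher by 1.37. Of 12 portal fibroblast and mesothelial markers 1 was higher and 3 were lower, a larger share than that of all probes, with a median of -0.70. No glial marker of 6 and no skeletal muscle marker of 7 was called, and at most 1 skeletal muscle marker was well above background in a liver cell sample. Of 6 neutrophil markers none was called, and of 7 epithelial and tumor markers 1 was higher.

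**Figure D3:**
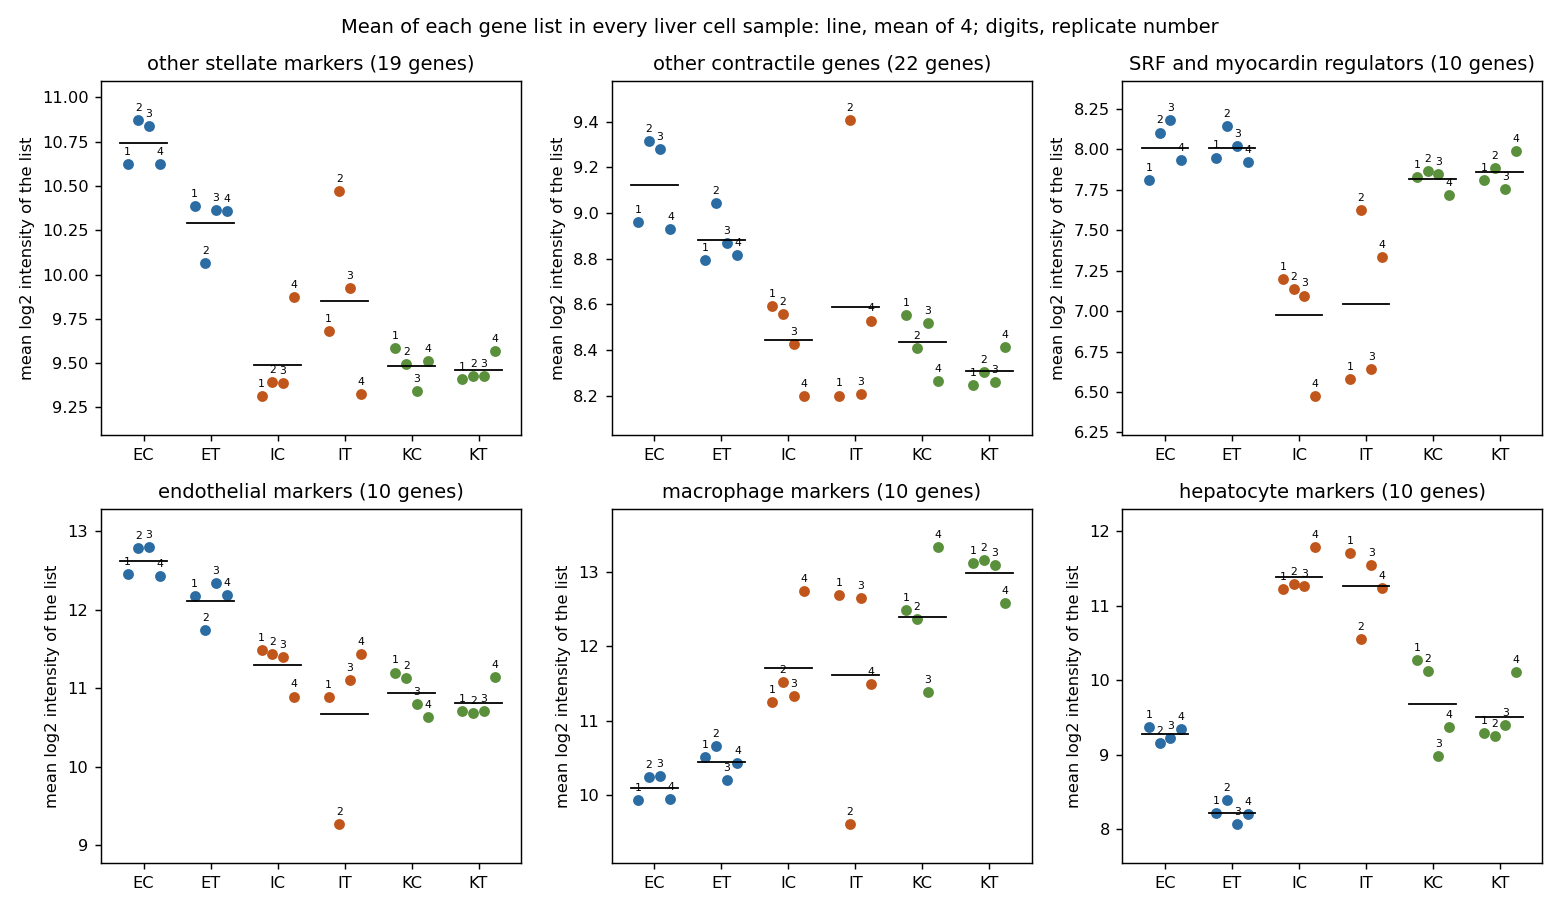
Mean log2 intensity of 6 gene lists in each liver cell sample, 1 panel a list, with 4 samples a group, their replicate numbers and a line at the group mean. The y axis gives the mean over the genes of a list, so heights are comparable within a panel only. Other stellate markers sit at 10.6 to 10.9 in EC and at 9.31 to 9.87 in IC, hepatocyte markers run the other way, and IT replicate 2 is the lowest IT sample for macrophage, endothelial and hepatocyte markers.

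Against Kupffer cells, which lay on the other slide, no member was called at an adjusted p under 0.05, where 25.1% of all probes were. *Reln* had 0.78 (0.08 to 1.48, adjusted p = 0.101), *Hgf* 0.70 (-0.24 to 1.64, adjusted p = 0.295) and *Ngfr* 0.64 (-0.13 to 1.40, adjusted p = 0.238). *Tagln* had -0.16 (-1.40 to 1.07, adjusted p = 0.905), *Acta2* 0.51 (-0.95 to 1.97, adjusted p = 0.683), *Des* 0.34 (-0.73 to 1.42, adjusted p = 0.717) and *Hand2* -0.56 (-1.14 to 0.02, adjusted p = 0.164). Without IT replicate 2, *Reln* was called higher in Ito cells, at 0.97 (adjusted p = 0.0317), and *Hand2* lower, at -0.78 (adjusted p = 0.0215), with 27.1% of all probes called. Of the other stellate markers 4 were higher and 2 lower in Ito cells. *Rgs5* had 2.36 (adjusted p = 9.65e-06) and *Colec11*, a collectin secreted by stellate cells, 1.17 (adjusted p = 0.00563), while *Lhx2*, a transcription factor that keeps stellate cells quiescent, had -1.69 (adjusted p = 6.51e-09) and *Tcf21* -1.04 (adjusted p = 0.000384). Of the contractile genes 6 were higher, led by *Itga8* with 2.05, and 5 lower, led by *Cnn2* with -1.84. In the list of 10 SRF and myocardin regulators 1 was higher and 5 lower, with a median of -0.84. Among 10 hepatocyte markers 9 were higher and 1 lower, with a median of 2.10. For 10 macrophage markers the counts were 0 higher and 4 lower, and for 10 endothelial markers 1 and 2. The part of these cell type markers in the differences was not tested.

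The next question was whether the genes changed in the TME. In endothelial cells no member was called with all 32 samples, against 1.14% of all probes. *Ngfr* was lower in ET on 4 of 4 arrays, by a log2 difference of -1.71 ± 0.53 (SE; -2.79 to -0.62), with an adjusted p of 0.159. *Tagln* was lower on 4 of 4 arrays, by -2.47 ± 0.85 (SE; -4.22 to -0.73), with an adjusted p of 0.244. *Reln* with -0.86 (adjusted p = 0.81), *Hgf* with -0.36 (adjusted p = 1) and *Des* with -0.68 (adjusted p = 1) were lower on all 4 arrays too. *Acta2* had -0.32 and *Hand2* -0.30, each with both signs among the arrays.

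The call of *Ngfr* in endothelial cells turned on the processing, though its direction did not. The fit pools the spread over all groups, and the Ito groups spread widely in this gene. Without replicate 4 of the Ito and Kupffer groups the endothelial samples and their difference were the same, and the adjusted p was 0.0454 against 1.64% of all probes called. In the 4 alternatives that start from the scanner signal its adjusted p lay between 0.000757 and 0.0285. With only the 2 endothelial groups in the fit it was 0.000834 for *Ngfr* and 0.0321 for *Tagln*. Of the 10 hepatocyte markers 3 were called lower in ET, led by *Fabp1* with -3.20 (adjusted p = 5.39e-05), and the mean level of the 6 neutrophil markers was 6.58 to 7.21 in EC and 8.60 to 10.1 in ET. Their part in these differences was not tested.

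In Ito cells no member was called with all samples, against 0.289% of all probes. *Ngfr* had -0.95 (adjusted p = 0.56) and *Reln* -0.83 (adjusted p = 0.583). On arrays 1, 2, 3 and 4 the TME minus control difference of *Ngfr* was -2.09, -1.64, -2.04 and 1.98, and that of *Reln* was -1.77, -2.29, -0.91 and 1.66. Array 4 thus had the opposite sign from the others for both genes. Without replicate 4 of the Ito and Kupffer groups *Ngfr* was lower in IT by -1.93 (-2.97 to -0.89, adjusted p = 0.0195) and *Reln* by -1.65 (-2.62 to -0.69, adjusted p = 0.0308), and 7.66% of all probes were called. In the same setting 5 of 6 neutrophil markers were called higher in IT, with a median of 3.83, and 3 of 10 endothelial markers lower, with a median of -1.06. Their part in these differences was not tested.

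*Tagln* split in another way, with -3.36 and -3.40 on Ito arrays 1 and 3 against 1.92 on array 2 and 2.91 on array 4. Its pooled difference was -0.48 (adjusted p = 0.94), and without replicate 4 it was -1.61 (adjusted p = 0.336). On array 2 the difference was 4.09 for *Acta2*, 4.30 for *Des* and 2.22 for *Hand2*, and the other arrays had at most 1.06, 0.48 and 1.24. None of these was called, with pooled differences of 1.28 (adjusted p = 0.715), 1.07 (adjusted p = 0.661) and 0.64 (adjusted p = 0.611). Without IT replicate 2 the difference was -0.31 for *Acta2*, 0.01 for *Des* and 0.19 for *Hand2*. *Hgf* had opposite signs between arrays and a pooled difference of 0.12.

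In Kupffer cells no member was called, against 0.436% of all probes. *Acta2* had 1.40, 1.27 and 1.06 on arrays 1 to 3 and -1.49 on array 4, and a pooled difference of 0.56 (adjusted p = 0.992). Without replicate 4 it had 1.24 (adjusted p = 0.739). *Tagln* had -1.37, -1.41 and -0.28 on arrays 1 to 3 and 0.91 on array 4, with -0.54 (adjusted p = 0.982) pooled and -1.02 (adjusted p = 0.712) without replicate 4. *Ngfr* went from -0.44 (adjusted p = 0.951) to -0.71 (adjusted p = 0.584). The difference of the change between Ito and endothelial cells, and between Ito and Kupffer cells, was called for no member, where 0.111 and 0.00359% of all probes were called.

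**Figure D4:**
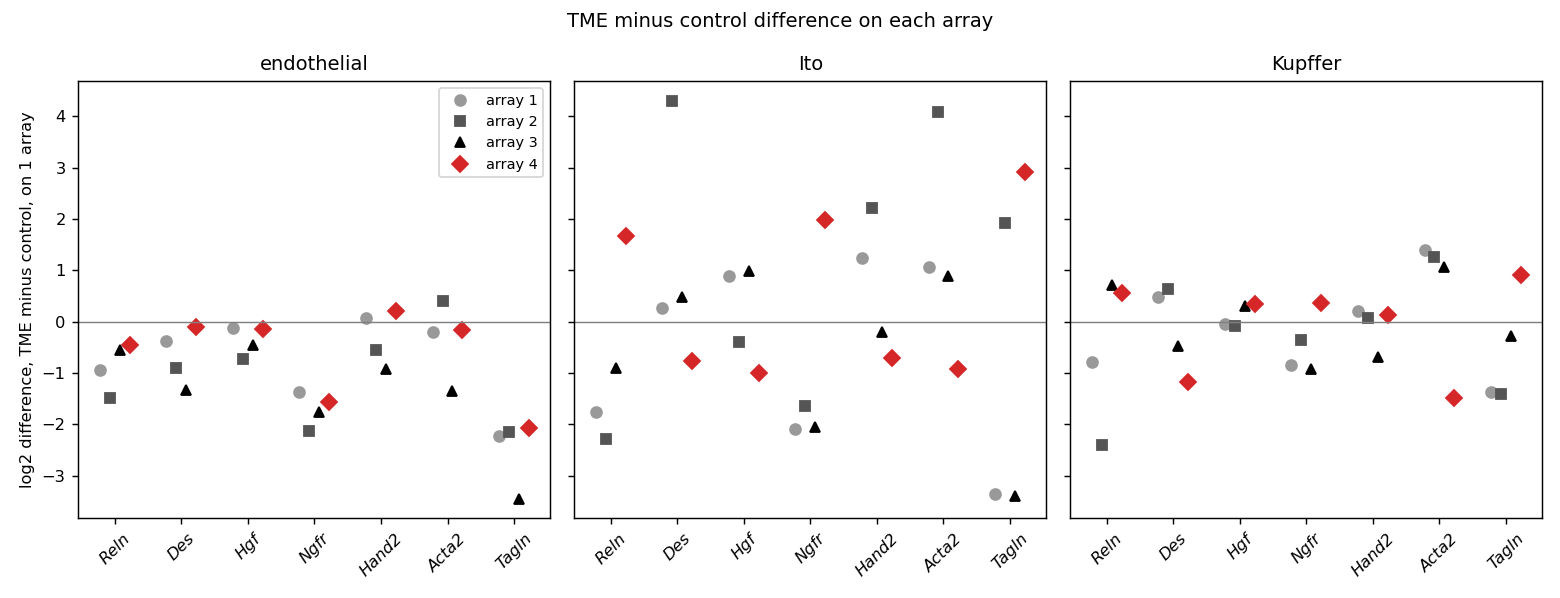
TME minus control log2 difference of the 7 measurable genes on each array, 1 panel a cell type, with a symbol for each array number and array 4 in red. In Ito cells array 4 lies above 0 and the others below it for *Reln* and *Ngfr*, array 2 stands highest for *Acta2* and *Des* at 4.09 and 4.30, and the 4 endothelial arrays lie together below 0 for *Ngfr* and *Tagln*.

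In none of the 3 cell types was a gene of the other stellate, contractile, SRF or partner lists called between TME and control with all samples. Without replicate 4, in Ito cells, 2 of 19 other stellate markers, 2 of 22 contractile genes, 1 of 10 genes of the SRF list and 1 of 15 partners were called, against 7.66% of all probes. They included *Ccn1*, lower by -2.39, while *Cygb* was higher by 2.25, *Lhx2* by 0.83 and the myosin light chain *Myl6* by 0.65. Of 10 vascular smooth muscle and pericyte markers, 1 was called in the same setting, the actin-associated *Synpo2*, lower by -3.19.

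IT replicate 2 had other cell type markers at unusual levels beside its high *Acta2*, *Des* and *Tagln*. The mean level of the macrophage markers was 9.60 there and 11.5 to 12.7 in the other IT samples, that of the endothelial markers 9.27 against 10.9 to 11.4, and that of the hepatocyte markers 10.6 against 11.2 to 11.7. The neutrophil markers stood at 11.2 against 6.74 to 9.91, and the epithelial and tumor markers at 8.41 against 5.49 to 5.99. Other stellate markers were at 10.5 against 9.32 to 9.92, other contractile genes at 9.41 against 8.20 to 8.53, and vascular smooth muscle and pericyte markers at 5.99 against 4.97 to 5.43. The part of these in the levels of the member genes was not tested.

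In the tumors, 6 of the 12 member probes were called lower than in Kupffer cells, against 51.0% of all probes called and 20.2% called and lower. *Tagln* was lower by 29.97-fold, a log2 difference of -4.91 ± 0.60 (SE; -6.14 to -3.67), with an adjusted p of 6.29e-08. *Hgf* had a fitted log2 difference of -4.56 ± 0.46 (SE), with an adjusted p of 1.57e-09. Its probe was not well above background in TM replicates 2 and 3, so this is not a size, and over the alternatives it lay between -5.06 and -2.87. *Acta2* had -0.31 (adjusted p = 0.756), with levels in TP that overlapped those of both Kupffer groups. The same 6 genes were called without replicate 4 of the Ito and Kupffer groups, where 48.9% of all probes were called. Scaling to the 75th percentile moved the median of all probes to 0.55 and the share of higher ones among the called from 60.3 to 71.8%, with the 6 genes still lower. Markers of the liver cell types were lower in the tumors too, with 10 of 10 macrophage markers (median -9.03), 10 of 10 endothelial markers (median -7.06), 9 of 10 hepatocyte markers (median -6.41) and 6 of 6 neutrophil markers (median -3.22). Their part in the members' differences was not tested.

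The remaining 4 genes were mostly not measurable in the tumors, so that their fitted differences are not sizes. These were -3.67 for *Ngfr* (adjusted p = 2.2e-09), -3.29 for *Hand2* (adjusted p = 7.35e-11), -2.73 for *Des* (adjusted p = 6.44e-05) and -1.81 for *Reln* (adjusted p = 5.62e-05). The call of *Des* was lost in 3 alternatives, with -0.60 (adjusted p = 0.0851) and -0.59 (adjusted p = 0.0656) in the settings with normexp and -0.75 (adjusted p = 0.0567) for log2(value + 50). The bound was set by the lowest signal well above background on the dim array, with normexp background correction, loess and Aquantile normalization, and is open to dye bias. For samples of the same dye, *Ngfr* was at least 1.92-fold higher in KC than in TM and at least 1.54-fold higher in KT than in TP. *Hand2* was at least 1.53-fold and 1.37-fold higher in the same pairs, and *Des* at least 1.35-fold higher in KT than in TP. *Reln* was at least 1.10-fold higher in KC than in TM, with KC measured on 2 of 4 arrays. For KT over TP its value was 0.946, which gives no bound. Against EC the bounds over TM were 4.18-fold for *Ngfr*, 2.501-fold for *Hand2* and 1.44-fold for *Reln*. EC and TM lay on different slides, so slide and cell type cannot be told apart in these bounds.

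Between TP and TM no member was called with all samples, against 3.01% of all probes. *Hgf* was higher in TP on 3 of 4 arrays, with 2.28 ± 0.64 (SE; 0.96 to 3.61) and an adjusted p of 0.0507, and its probe was not well above background in TM replicates 2 and 3. *Des* had -1.90 (adjusted p = 0.176), and its probe was not well above background in any TP sample or in TM replicates 1 and 4. The fitted differences of both genes are therefore set in part by background values. On arrays 1, 2, 3 and 4 the difference of *Hgf* was 1.41, 4.71, 3.67 and -0.66 and that of *Des* -0.06, -3.50, -3.46 and -0.57, so both were largest in size on arrays 2 and 3. Without IT replicate 2 both were called, with adjusted p-values of 0.0475 and 0.0497, and 3.67% of all probes were called. That sample is in neither TP nor TM, so both differences stayed the same. Only the spread pooled over all groups and the adjustment over probes changed.

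Among the other lists, set against the 51.0% of all probes called, 11 of 19 other stellate markers were lower in the tumors than in Kupffer cells and 5 higher. *Lhx2* had -8.54 (adjusted p = 5.33e-25), *Rgs5* -6.59 (adjusted p = 3.51e-15) and *Colec11* -6.17 (adjusted p = 1.21e-15), while among the higher ones the collagen gene *Col1a1* had 4.26 (adjusted p = 6.42e-06). Of the 22 contractile genes 8 were lower and 3 higher, a share close to that of all probes. Lower were, among others, *Csrp1* with -3.68 and *Myl9* with -3.57. The 3 higher ones were the tropomyosins *Tpm2* with 5.72 (adjusted p = 3.75e-08) and *Tpm1* with 1.71 and the actin-binding *Cald1* with 1.77. Of the 10 genes of the SRF list 6 were lower, led by *Ccn2* with -6.70 (adjusted p = 3.07e-08), and 2 higher.

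Of the 15 partners 5 were higher and 5 lower in the tumors. The reelin receptors *Vldlr* and *Lrp8* had 8.01 (adjusted p = 2.14e-17) and 4.58 (adjusted p = 4.78e-10), and the neurotrophin receptor *Ntrk2* had 3.14 (adjusted p = 8.09e-18). *Bdnf* had 3.30 (adjusted p = 7.31e-13). Among the lower ones, *Hgfac* had -3.03.

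Over the 24 liver cell samples, *Acta2* and *Des* had Pearson's r = 0.91, the highest of any pair of the 7 genes, and *Des* and *Hand2* had r = 0.82. Without IT replicate 2 the order was the other way, with 0.85 for *Acta2* and *Des* and 0.89 for *Des* and *Hand2*. With all samples *Reln* and *Ngfr* had 0.78 and *Ngfr* and *Tagln* 0.68, while *Ngfr* and *Acta2* had 0.00. Pairs of these points share an array, and groups share a dye and a slide, so the values describe these samples only.

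Of all named genes measured in the liver cells, the 3 most like *Hgf* were *Agtr1a*, which encodes an angiotensin receptor, with r = 0.96, *Wls* with 0.95 and *Armcx1* with 0.95. Those most like *Tagln* were *Gchfr* with 0.94, *Fbln5*, a gene of elastic fibres, with 0.92 and *Fhl2* with 0.91. Those most like *Acta2* were *Haus5* with 0.92, *Des* with 0.91 and *Scrn2* with 0.90. For *Reln* they were *Arhgef12*, *Srpx2* and *Hnrnpm*, with 0.91, 0.90 and 0.90, for *Hand2* *Fkbp2*, *Timm22* and *Evc2*, each with 0.94, and for *Des* they included *Tars2* and *Slc39a11*, each with 0.95. For *Ngfr* they were 5031425E22Rik with 0.92, 1810011O10Rik with 0.90 and *Synpo2* with 0.90.

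Promoter windows of RefSeq (GRCm38.p6), each 300 bases long and mostly before the start of transcription, were at hand for 8 of the 10 genes, 9 windows in all, and those of *Tagln* and *Myh11* were not used here. The CArG box, the DNA element that SRF binds, was in 0 of 9 windows and in 1.63% of the 32851 windows of all genes, searched on both strands. The E-box CANNTG was in 7 of 9 windows against 72.3% of all, with 3 in the window of *Acta2*. The TATA box TATAAA, on either strand, was in 0 of 9 against 13.6%. GGGCGG, or CCGCCC on the other strand, was in 4 of 9 against 35.7%, with 6 in the window of *Reln* and 4 in that of *Ngfr*. Matches of such short motifs describe the letters of the window only.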

How the data were processed

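RNA of 32 samples was hybridised on 2-colour arrays. The authors deposited the spot intensities of Agilent's Feature Extraction 10.7.3.1, with local background and flags, and a table of linear intensity per probe and sample that they had quantile normalized, with centring and scale otherwise unstated. This deposit of normalized values, which tracks the processed signal after quantile normalization, was used on the log2 scale, with the channel of each sample taken from its dye label. A probe was called well above background by the scanner's flag.

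All 32 samples were fitted to the 8 groups with limma 3.58.1 (lmFit and eBayes, R 4.3.3, with the data.table package at 1.17.8), with Benjamini-Hochberg adjustment over 55681 probes, and called at an adjusted p under 0.05. The study states an adjusted p under 0.001 and a factor of 4, tried as an alternative. All probes of the 10 genes are named. For genes with several probes the one with the highest variance was used. From each list at most 5 called genes with the largest difference are named, and of called genes a few others, such as *Rgs5*, *Lrat* and *Hgfac*, after their values were seen. A few genes of the lists are not reported here by name. The lists held other stellate markers, other contractile genes, SRF and myocardin regulators, partners of HGF, p75 and reelin, and markers of vascular smooth muscle and pericytes, portal fibroblasts and mesothelium, glia, skeletal muscle, endothelium, macrophages, hepatocytes, neutrophils, and epithelium and tumor. The members and lists were chosen with earlier results of these data known.

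The alternatives were the quantile-normalized processed signal, normexp correction (offset 50) with quantile or with loess and Aquantile normalization, the 75th percentile, log2(value + 50), a filter on detection, the array as a block, a fit of only the groups compared, the methods' t-test and left-out replicates. The steps were tested on simulated data. Figures were drawn with matplotlib 3.10.9, numpy 2.4.6 and pandas 2.3.3 in Python 3.11.15. The miRNA and protein data were not analysed here.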

Additional observations from a re-analysis of the deposited data

Results flagged for a closer look

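A set was the 4 samples of a group for 1 member probe, with at least 1 of them well above background. In 54 such sets, the gap of the extreme sample to its neighbour was divided by the range of the group. This ratio was set against Dixon's critical value of 0.829. The ratio was above it in 12 sets. The sets share samples and are not independent, and the share over all probes is not given. The count is therefore not set against chance. Replicate 4 was the extreme sample of a Kupffer or Ito group in 7 of them. IC replicate 4 was the lowest for *Reln* (0.931), *Ngfr* (0.907) and *Tagln* (0.905), and IT replicate 4 was the highest for *Ngfr* (0.834). KT replicate 4 was the lowest for *Des* (0.841) and *Acta2* (0.900) and the highest for *Tagln* (0.919). IT replicate 2 was the highest for *Des* (0.962) and *Acta2* (0.907). ET replicate 2 was the highest for *Acta2* (0.920) and *Cnn1* (0.971). For *Cnn1* it was the only sample well above background, so that set entered the count only through the sample flagged in it. In ET replicate 2 the portal fibroblast and mesothelial markers had a mean of 6.74, against 4.89 to 5.20 in the other ET samples, and 11 of 12 were well above background. The epithelial and tumor markers were at 6.26 against 4.69 to 5.18, and the endothelial markers at 11.7 against 12.2 to 12.3. The part of these in the levels of the member genes was not tested. TP replicate 1 was the highest for *Acta2* (0.912).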

How the results depend on the processing

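Numbers of member probes called, out of 12, are given with all samples and under each alternative that moved them. For ET minus EC the number was 0, and it was 1 with the quantile-normalized processed signal, both normexp settings, the 75th percentile, log2(value + 50), the methods' t-test and without replicate 4 of the Ito and Kupffer groups, and 2 with only the groups compared. For IT minus IC it was 0, and 2 without replicate 4 of those groups. For TP minus TM it was 0, 1 with the array as a random replicate block and 2 without IT replicate 2, a sample of neither group. For Ito minus endothelial it was 2, 4 with normexp and quantile, 3 with normexp, loess and Aquantile or log2(value + 50), 5 with the 75th percentile, 0 at the study's threshold, 0 with TME samples alone and 4 without IT replicate 2. For Ito minus Kupffer it was 0, 2 with either normexp setting or without IT replicate 2, and 1 with the 75th percentile, log2(value + 50), only the groups compared or the t-test. For tumor minus Kupffer it was 6, 10 with the 75th percentile and 5 with either normexp setting, log2(value + 50) or the study's threshold. The probes added with the 75th percentile were of *Gfap*, *Myh11* or *Cnn1*. These were well above background in 0 of 8 tumor samples, so the added calls are not measured differences. Leaving out each replicate number in turn gave 0 to 1 for ET minus EC, KT minus KC, TP minus TM, Ito minus Kupffer and the change in Ito minus that in Kupffer cells, 0 to 2 for IT minus IC, 6 to 7 for tumor minus Kupffer and 1 to 4 for Ito minus endothelial. Leaving out 1 number turned the sign of uncalled differences in *Acta2* for ET minus EC (-0.57 to 0.0173) and, for IT minus IC, in *Des* (-0.0100 to 1.68), *Hgf* (-0.17 to 0.49) and *Tagln* (-1.61 to 0.49). *Acta2* for IT minus IC lay at -0.31 without IT replicate 2 and up to 2.02 without replicate 4, and *Ngfr* for Ito minus endothelial was 0.0878 with TME samples alone. *Des* in tumor minus Kupffer lost its call with normexp and quantile (-0.60, adjusted p = 0.0851), normexp, loess and Aquantile (-0.59, adjusted p = 0.0656) or log2(value + 50) (-0.75, adjusted p = 0.0567). Over single genes, 433 alternative values kept direction and side of the threshold, 23 gained the call, 12 lost it and 8 turned sign. The causes were not tested. Same-numbered samples deviated together with r from -0.64 to 0.40, so the numbers were not taken as pairs, and with the array as a fixed replicate block 0 member probes were called for ET minus EC, IT minus IC, KT minus KC and TP minus TM. The settings without IT replicate 2 and with control or TME samples alone were chosen after seeing the data. Under 5 other scalings the median of the other stellate markers for Ito minus endothelial lay between -0.83 and -0.67 and that of the other contractile genes between -0.41 and -0.18, while for tumor minus Kupffer the latter went from -0.31 to 0.12 with the 75th percentile. Signals near background limit *Gfap*, *Cnn1*, *Myh11* and, in tumors, *Reln*, *Ngfr* and *Hand2*.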
